A study of Mus musculus with 6 samples.

Results

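The genes of cholesterol biosynthesis and of its control by SREBP2 were followed in J774A.1, a macrophage-like line established from a BALB/c mouse, after exposure to neuropeptide FF (NPFF). The set was a list of 30 genes chosen by their function, with earlier results of these data already known. Each gene was read from the brightest array feature paired with its symbol alone. Of the 30, 27 had such a feature among the 22180 genes of the table; Idi1, Acat2 and Soat1 did not and were not analysed here. The 3 treated samples came from cells given 1 nM NPFF in phosphate-buffered saline (PBS) for 18 h, and the 3 control samples from cells given PBS for the same time. The controls are called non-treated in their titles. All 6 samples were the same cell line in the same serum-containing medium, without any genetic change named in the labels, and each was measured on a whole-transcript array. Titles call the samples biological replicates and do not say whether they were grown on separate days, and the p-values below therefore rest on the spread among these 6 samples alone, which may be technical. Values are quantile-normalized log2 intensities, and differences are NPFF minus control on that scale. A difference of 1 is a doubling, and levels of different genes are not compared, since each feature has its own response; a signal percentile among all genes is given only as a rough guide to how bright a feature was.

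Cells make cholesterol from acetyl-CoA through mevalonate, farnesyl diphosphate, squalene and lanosterol. SREBP2, the product of Srebf2, is held in the endoplasmic reticulum by Insig proteins bound to its escort Scap when sterols are plentiful. When sterols fall, Scap carries it to the Golgi, where the site-1 and site-2 proteases (Mbtps1 and Mbtps2) release a fragment that enters the nucleus and turns on the pathway through sterol regulatory elements, usually together with the CCAAT-binding factor NF-Y. Macrophages also store cholesterol as esters and release it again, and cells in serum take much of their sterol from lipoproteins.

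Promoter windows of 25 of the 30 genes were found in RefSeq (GRCm38.p6), each running from 250 bases before to 50 bases after a start site; those of Fdft1, Stard4, Acat1, Fdps and Sqle were not used here. The letters CCAAT, searched on both strands, were in a window of 21 of these 25 genes (84.0%) and of 11096 of all 27025 genes with a window (41.1%). At least 2 copies were in a window of 12 of the 25 genes (48.0%), against 13.3% of all genes. The letters TCACNCCAC, a strict form of the sterol regulatory element that does not overlap CCAAT, were in the window of 1 member, Hmgcs1, and of 388 genes in all (1.44%). A match is a description of the letters and not a site, and a window without the letters says nothing of the factor. The stretches below were chosen because Hmgcs1 carries both motifs and because Cyp51 and Ebp were the members with the lowest and the highest difference between the groups. Capitals mark CCAAT, or ATTGG where it lies on the other strand, and TCACNCCAC.
Hmgcs1, chr13:119690151-119690270, plus strand, bases -200 to -81 from the start site: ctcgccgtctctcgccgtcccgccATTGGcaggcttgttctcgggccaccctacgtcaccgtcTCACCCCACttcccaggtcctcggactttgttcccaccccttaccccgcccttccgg
Cyp51, chr5:4104698-4104817, minus strand, bases -120 to -1: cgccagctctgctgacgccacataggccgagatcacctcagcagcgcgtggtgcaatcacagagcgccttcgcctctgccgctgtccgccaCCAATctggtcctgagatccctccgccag
Ebp, chrX:8193513-8193632, minus strand, bases -120 to -1: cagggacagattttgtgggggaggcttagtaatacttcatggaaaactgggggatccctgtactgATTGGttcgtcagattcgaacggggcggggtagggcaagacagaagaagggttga

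The arrays differed in ways the groups do not explain. Between NPFF arrays Pearson's r was 0.996 to 0.997 and between control arrays 0.965 to 0.996, both taken across genes, which are no independent replicates. Set against the mean of the other arrays, control 1 scattered most, with a gene-wise SD of 0.37, where control 2 had 0.21 and the rest 0.11 to 0.13. The defining macrophage markers were mostly bright, with a median at the 96.6th percentile of signal over 10 genes. The lowest of them, Mertk, was at the 58.8th. Markers of fibroblasts, epithelium, endothelium, lymphocytes, hepatocytes and adipocytes had medians between the 13.0th and the 52.1st percentile. The brightest of these, the epithelial Krt8, was at the 62.7th, above Mertk. The number of arrays, 3 a group, limits the precision of every value below.

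No sterol pathway gene passed the test between NPFF and control. In whole cultures such as these, fewer expressing cells and less RNA per cell cannot be told apart. By limma over all genes, with Benjamini-Hochberg adjustment, 0 of the 27 members and 0 of all 22180 genes (0%) had an adjusted p under 0.05, and the smallest adjusted p of a member was 0.9996. Without adjustment, 0 members had a p under 0.05, beside 556 genes, or 2.51%, of the table (0.834% higher and 1.67% lower in NPFF). The members' differences lay between -0.21 for Cyp51 and 0.36 for Ebp, and 14 of the 27 were smaller than their own standard error (SE). Of the members, 16 were higher and 11 lower in NPFF, with a median difference of 0.07. Over all genes 51.7% were higher and the median was 0.00370; over the 8546 genes as bright as the dimmest member or brighter, 59.4% were higher and the median was 0.034. The 95% confidence interval of the difference lay within a 2-fold change either way (-1 to 1) for 26 members, Srebf2 being the exception, and within -0.5 to 0.5 for 14. The members lay between the 61.5th and the 98.4th percentile of signal.

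The sign of the list's median rested on control 1. The mean of the NPFF arrays was above control 1 in 19 of 27 members, with a median of 0.33, where 62.6% of all genes were higher and their median was 0.07. Against control 2 it was higher in 6 of 27, with a median of -0.06, beside 35.8% of all genes. Against control 3 it was higher in 12 of 27, with a median of -0.02, beside 48% of all genes. Each single NPFF array gave the same picture. The 3 of them had member medians of 0.33 to 0.34 above control 1, of -0.08 to -0.07 against control 2 and of -0.04 to 0.01 against control 3. Without control 1, 21 of the 27 members were lower in NPFF and the median was -0.06, where 60.9% of all genes were lower and the median was -0.02.

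**Figure D1:**
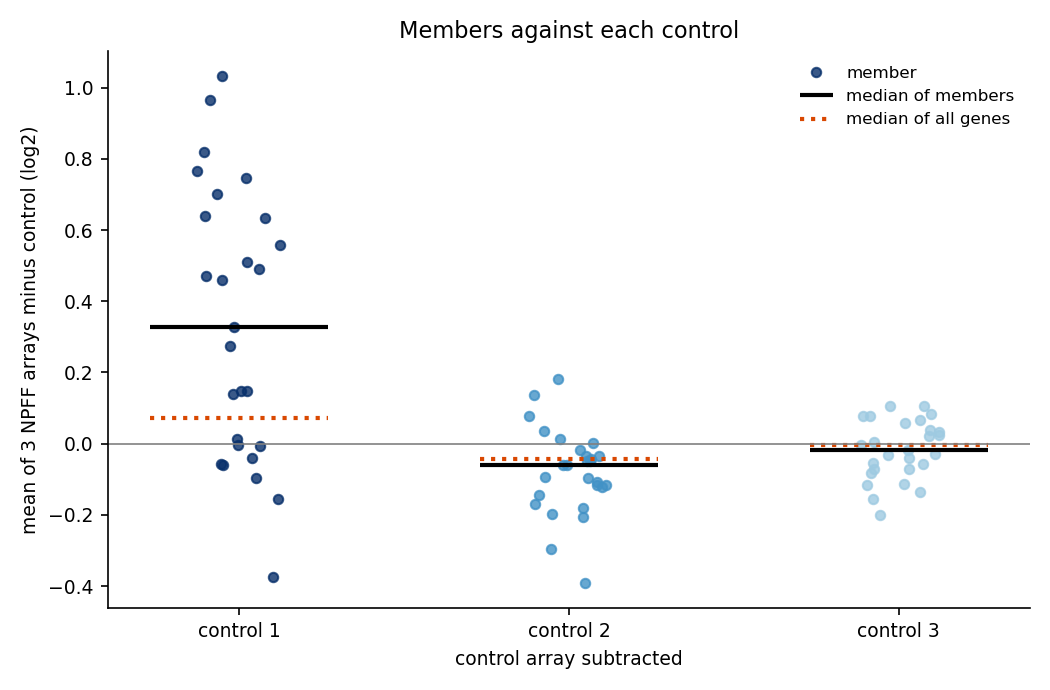
Mean of the 3 NPFF arrays minus each control array (vertical axis, log2) for the 27 measured members, a point each; the solid bar is the members' median and the dotted bar the median of all 22180 genes. Against control 1 the points reach 1.03 with a median of 0.33; against controls 2 and 3 the medians are -0.06 and -0.02.

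Averaged over the members, the level was 8.68 in control 1, 9.10 in control 2 and 9.04 in control 3. It was 9.04, 9.01 and 9.01 in NPFF 1, 2 and 3. Thus the NPFF arrays lay between the controls, close to control 3, and the groups overlapped. Control 1 was under the mean of controls 2 and 3 in 23 of 27 members (66.1% of all genes), with a median shift of -0.41 (-0.11 over all genes). Of the genes as bright as the dimmest member or brighter, 71.4% were under it, with a median shift of -0.19. It was the lowest of the 6 arrays in 18 of 27 members, beside 48.9% of all genes. Its shift was below -0.5 in 12 members, or 44.4%, where 11.2% of all genes were so. That 11.2% includes genes dimmer than any member, and a share limited to brighter genes was not taken. In the further lists described below, the share was 33.3% for fatty acid synthesis, 33.3% for prenyl use and oxysterols, and 10.0% for other sterol genes. With cyclic loess in place of quantile normalization, 19 members were under (53.6% of all genes) and 6 were below -0.5 (5.5%). With the values as deposited, these counts were 26 (56.7% of all genes) and 15 (15.1%). The control SD was above the NPFF SD in 23 of 27 members, or 85.2%, and in 80.4% of all genes. What set control 1 apart was not tested.

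**Figure D2:**
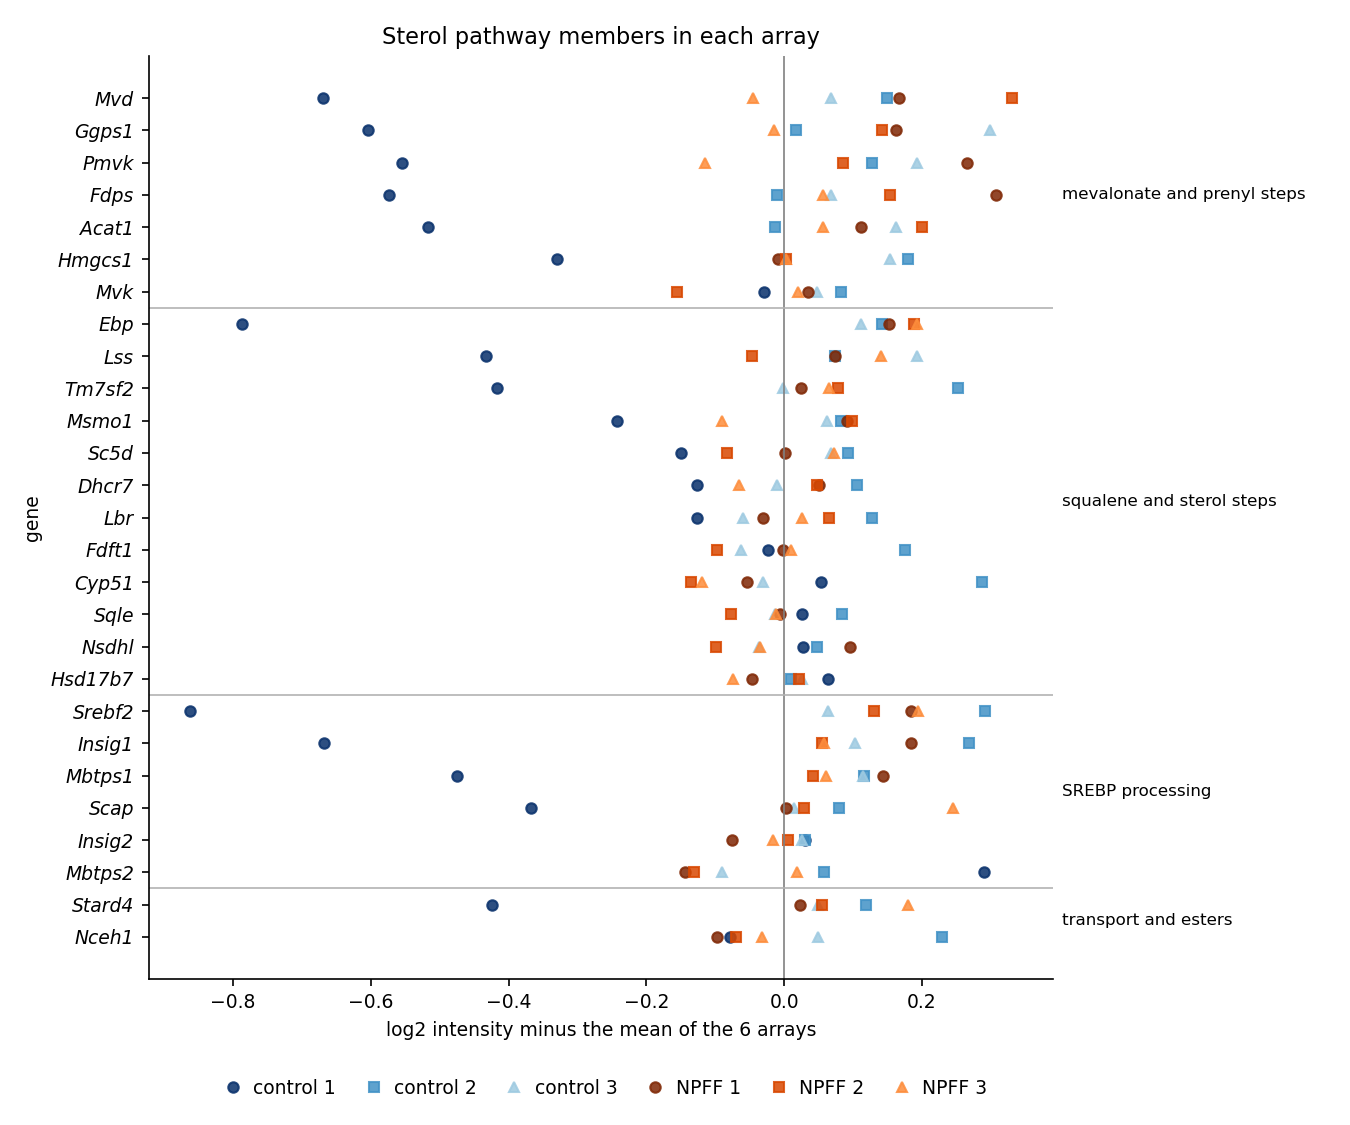
Level of each of the 27 members in each array as log2 intensity minus the gene's mean over the 6 arrays (horizontal axis), with genes grouped by role and ordered by the shift of control 1; blue marks are the controls and orange marks the NPFF arrays. Control 1 is the lowest array for 18 members, by most for Srebf2 and Ebp, and the highest for 3, among them Mbtps2.

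Of the 7 measured genes from acetoacetyl-CoA to prenyl diphosphates, 5 were higher in NPFF and 2 lower, with a median of 0.19, and 0 passed limma. Without control 1 they were 3 higher and 4 lower, with a median of -0.06. Hmgcs1, the synthase that makes HMG-CoA and whose promoter stretch is printed above, read 8.50, 9.01 and 8.98 in controls 1 to 3 and 8.82, 8.83 and 8.83 with NPFF. The NPFF arrays were nearly identical and lay inside the control range, between control 1 and the other two. The difference was -0.0030 (SE 0.14; 95% interval -0.34 to 0.34). Without control 1 it was -0.17 (SE 0.05), at an unadjusted p = 0.0161 by limma and an adjusted p = 0.382.

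Fdps, the farnesyl diphosphate synthase, read 10.65, 11.21 and 11.29 in the controls and 11.53, 11.37 and 11.28 in NPFF. The 2 highest arrays were NPFF arrays, but NPFF 3 fell just under control 3. The difference was 0.34 (SE 0.18), a ratio of 1.27, and it was 0.14 without control 1. Mvd, which decarboxylates mevalonate diphosphate, read 7.37, 8.19 and 8.11 in the controls and 8.20, 8.37 and 7.99 in NPFF. NPFF 3 was below controls 2 and 3. Its difference of 0.30 (SE 0.23) became 0.04 without control 1. Acat1, a mitochondrial acetoacetyl-CoA thiolase, read 8.87, 9.37 and 9.55 in the controls against 9.50, 9.59 and 9.44 in NPFF. Control 3 lay within the NPFF range, and the difference of 0.25 (SE 0.17) fell to 0.05 without control 1.

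The kinases Mvk and Pmvk, which phosphorylate mevalonate in turn, had differences of -0.07 (SE 0.08) and 0.16 (SE 0.21). Ggps1, which makes geranylgeranyl diphosphate for protein prenylation, differed by 0.19 (SE 0.22). Pmvk and Ggps1 changed sign without control 1, to -0.08 and -0.06. In the mevalonate part all 7 genes were lower in control 1 than in the mean of controls 2 and 3, by 0.09 for Mvk at the least and 0.78 for Mvd at the most.

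The 12 genes from squalene synthesis to cholesterol were divided 6 to 6, with a median difference of 0.00763. Cyp51, the lanosterol 14-alpha-demethylase, read 7.80, 8.04 and 7.72 in the controls and 7.70, 7.62 and 7.63 in NPFF. All NPFF arrays were below all controls, though NPFF 1 was only just below control 3, and control 2 was the high array. The difference of -0.21 (SE 0.09; 95% interval -0.43 to 0.02), a ratio of 0.867, was at an unadjusted p = 0.0690 by limma and an adjusted p = 0.9996. It was -0.23 without control 1, -0.11 without control 2 and -0.27 without control 3. Cyp51 was the only one of the 6 members with the largest differences whose value was not reduced by leaving out control 1.

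Ebp, the sterol isomerase that moves the ring double bond, had the largest difference of the list. It read 8.22, 9.15 and 9.12 in the controls and 9.16, 9.20 and 9.20 in NPFF. All NPFF arrays were above all controls, but controls 2 and 3 lay within 0.1 of them and control 1 far below. The difference of 0.36 (SE 0.25), a ratio of 1.28, was 0.05 without control 1. Together with Insig2, Cyp51 and Ebp were the 3 members of 27 whose groups did not overlap, 1 higher (3.67% of all genes) and 2 lower (4.92% of all genes; 8.58% in either direction). With cyclic loess these were Ebp and Nceh1, and with the values as deposited there were none. The share of all genes without overlap was not taken on those scales, so these counts have no background beside them.

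Sqle, the squalene epoxidase that is a rate-limiting step after mevalonate, read 9.43, 9.49 and 9.39 in the controls and 9.40, 9.33 and 9.39 in NPFF. The arrays spanned a narrow range and the groups overlapped. Its difference was -0.06 (SE 0.06; 95% interval -0.21 to 0.08), and control 1 did not stand out in it. Fdft1, the squalene synthase, had a difference of -0.06 (SE 0.08), and Lss, which closes the ring to lanosterol, one of 0.11 (SE 0.17). The 2 sterol C14 reductases had differences of 0.11 for Tm7sf2 (SE 0.16) and 0.04 for Lbr (SE 0.08), Lbr being also a protein of the inner nuclear membrane.

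The C4 demethylation steps are carried out by Msmo1, Nsdhl and Hsd17b7. Their differences were 0.07 (SE 0.11), -0.02 (SE 0.07) and -0.07 (SE 0.06). The last steps belong to Sc5d, a desaturase, and Dhcr7, a reductase that completes cholesterol. They had differences of -0.0065 (SE 0.09) and 0.02 (SE 0.08). For these genes, as for Sqle and Fdft1, the 95% interval stayed within -0.5 to 0.5. Without control 1, 11 of the 12 genes from squalene onward were lower in NPFF, by 0.01 to 0.23, and Ebp was higher. Over all genes 60.9% were lower. This split rested on control 2. Against control 2 alone the NPFF mean was higher in 1 of the 12, with a median of -0.10, beside 35.8% of all genes. Against control 3 alone it was higher in 6 of the 12, with a median of 0.0018, beside 48% of all genes.

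The 6 genes of SREBP2 processing were 4 higher and 2 lower in NPFF, with a median of 0.17. Without control 1 they were 1 higher and 5 lower, with a median of -0.05. Against control 2 alone the NPFF mean was higher in 1 of the 6, with a median of -0.09. Against control 3 alone it was higher in 3 of the 6, with a median of 0.00062. Srebf2, which had the largest control SD of the members (0.61), read 8.85, 10.00 and 9.77 in the controls and 9.89, 9.84 and 9.90 in NPFF. The 3 NPFF arrays lay between controls 3 and 2, and control 1 was about 2.06-fold below the mean of the other two controls. The difference was 0.34 (SE 0.28; 95% interval -0.34 to 1.02), and without control 1 it was -0.0077. Insig1, the sterol-regulated retention protein and itself a target of SREBP2, read 8.46, 9.40 and 9.23 in the controls and 9.31, 9.18 and 9.19 in NPFF. The NPFF arrays lay on both sides of control 3, and control 1 was the low array. Its difference of 0.20 (SE 0.24) was -0.09 without control 1.

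Insig2, the isoform that also holds Scap in the endoplasmic reticulum, behaved differently in the controls. It read 7.86 in each of them and 7.76, 7.84 and 7.81 in NPFF. All NPFF arrays were lower, and the difference was small, at -0.06 (SE 0.06; 95% interval -0.20 to 0.08), with -0.06 also against each control. The escort Scap had a difference of 0.18 (SE 0.14), which was 0.05 without control 1. Of the proteases, Mbtps1 had a difference of 0.16 (SE 0.17), and Mbtps2 one of -0.17 (SE 0.11). Mbtps2 read 11.35, 11.12 and 10.97 in the controls and 10.92, 10.93 and 11.08 in NPFF, so control 1 was its highest array. Without control 1 these were -0.03 and -0.07.

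Stard4, a sterol carrier protein and SREBP2 target, read 6.98, 7.53 and 7.45 in the controls and 7.43, 7.46 and 7.59 in NPFF. Its difference of 0.17 (SE 0.15) was 0.00195 without control 1. Nceh1, a hydrolase that frees cholesterol from esters in macrophages, read 9.82, 10.13 and 9.95 in the controls against 9.80, 9.83 and 9.87 in NPFF. Control 1 lay within the NPFF range and the other two controls above it. The difference was -0.13 (SE 0.09; 95% interval -0.35 to 0.08), and without control 1 it was -0.21 (SE 0.07), at an unadjusted p = 0.0203 by limma and an adjusted p = 0.400. Hmgcs1, Cyp51 and Nceh1 were the 3 members with an unadjusted p under 0.05 in that setting, in which 2397 of all genes, or 10.8%, were also under it.

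**Figure D3:**
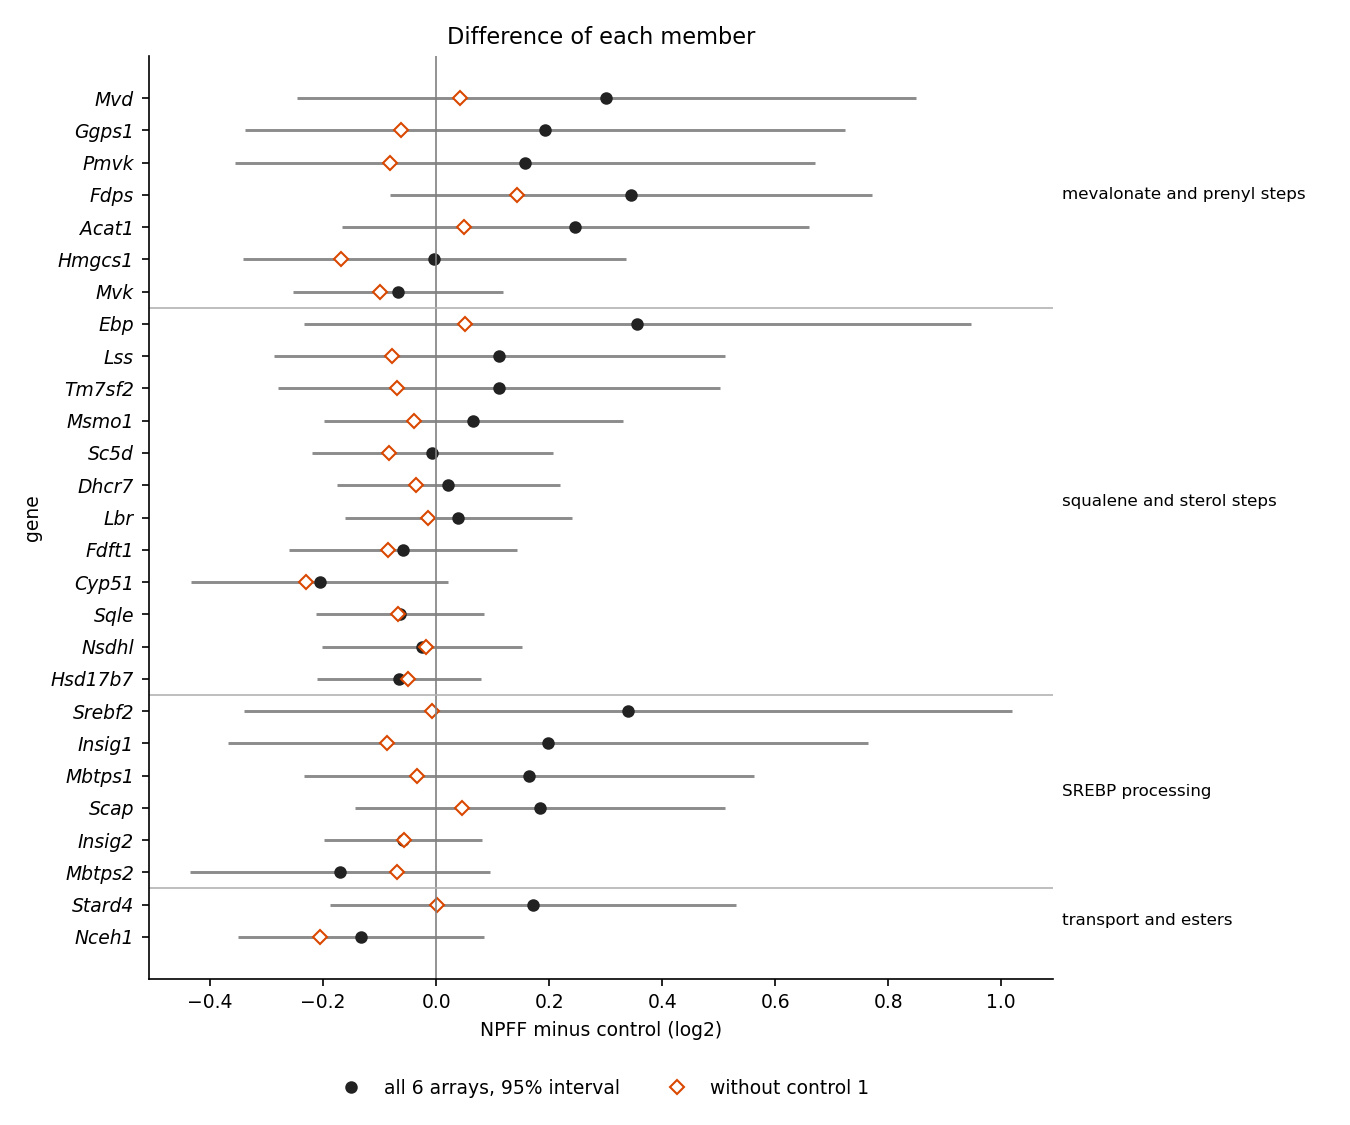
Difference between NPFF and control for each of the 27 members (horizontal axis, log2); filled circles and bars are the limma estimate and its 95% interval over all 6 arrays, and open diamonds the estimate without control 1. Every interval includes 0, and for members such as Ebp, Mvd and Srebf2 the diamond lies near 0.

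Genes around the pathway were taken from 3 further lists, and 0 of their members passed limma after adjustment. Of 10 other sterol genes, which hold carriers and regulators, 6 were higher and the median difference was 0.04; without control 1, 4 were higher and the median was -0.04. The lysosomal cholesterol exporter Npc1 read 10.12, 10.33 and 10.17 in the controls and 9.95, 9.97 and 10.05 in NPFF. All NPFF arrays were lower, with a difference of -0.21 (SE 0.08), at an unadjusted p = 0.0294 by limma and an adjusted p = 0.9996. The difference of Npc1 was -0.26 without control 1. The ubiquitin ligase Rnf145, which acts on sterol-regulated membrane proteins, had a difference of 0.20 (SE 0.09), with all NPFF arrays above all controls, and 0.11 without control 1. Erg28, a scaffold of the C4 demethylation complex, had one of -0.12 (SE 0.09), which was -0.05 without control 1.

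Of 15 measured genes of fatty acid synthesis, the branch served mainly by SREBP1, 11 were higher in NPFF and the median was 0.11. Me1, which supplies NADPH, had a difference of -0.24 (SE 0.10; unadjusted p = 0.0484 by limma), with no overlap between groups, and -0.15 without control 1. The elongase Elovl5 had a difference of 0.11 (SE 0.07), with all NPFF arrays above all controls, and 0.06 without control 1. Fasn, the fatty acid synthase, read 9.10, 10.02 and 9.92 in the controls and 10.03, 10.02 and 10.11 in NPFF. Control 1 was again the low array, as for Srebf2, and the difference of 0.37 (SE 0.24) was 0.09 without it. In this list 13 of 15 genes were lower in control 1 than in the mean of controls 2 and 3, and with those 2 controls alone 11 of 15 were lower in NPFF. Against control 2 alone the NPFF mean was higher in 4 of 15, and against control 3 alone in 10 of 15.

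Of 12 genes of prenyl group use and oxysterol formation, 7 were higher and the median was 0.06; without control 1, 4 were higher and the median was -0.03. Ch25h, the cholesterol 25-hydroxylase whose product holds SREBP2 inactive, read 6.35, 6.44 and 6.53 in the controls and 6.29, 6.25 and 6.26 in NPFF. All NPFF arrays were lower, with a difference of -0.17 (SE 0.07, unadjusted p = 0.0415 by limma), which was -0.22 without control 1. The gene was at the 46.1st percentile of signal. Pdss2, of ubiquinone side chain synthesis, had a difference of -0.13 (SE 0.08), which was -0.18 without control 1. The sterol 27-hydroxylase Cyp27a1 had one of 0.10 (SE 0.07), which was 0.04 without control 1. In each list 1 gene had an unadjusted p under 0.05 by limma, Npc1 of 10, Me1 of 15 and Ch25h of 12. All were lower in NPFF. Over all genes 1.67% were lower at that level and 0.834% higher. The groups of Npc1, Me1 and Ch25h did not overlap, as in the 4.92% of all genes that were lower without overlap. Rnf145 and Elovl5 were higher without overlap, as were 3.67% of all genes.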

How the data were processed

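Levels of RNA were measured on 6 arrays, 3 of control and 3 of NPFF-treated cells, grouped by the sample titles. The deposited values are log2 intensities, judged by values between 4.59 and 14.0; how the authors corrected background and normalized, and on which genome build, is not stated in the sources used. A platform annotation table paired 23521 of 33794 features with 1 symbol, 1814 with several and 8459 with none. Array distributions lay up to 0.17 log2 from the mean of the 6 arrays at the same rank. All features were therefore quantile-normalized, and the brightest feature per gene was kept.

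Groups were compared with limma 3.58.1 in R 4.3.3 (lmFit and eBayes on group, 4 residual and 2.49 prior degrees of freedom, two-sided, Benjamini-Hochberg over 22180 genes, threshold 0.05); the same fit gave the SE and the 95% intervals. The fit was run on simulated data, where its mean estimate was checked against the difference added. That check says nothing of the power to find differences as small as those here with 3 arrays a group. Alternatives covered scaling, features of a gene, dim genes, array weights, the replicate number as a block and left-out arrays. Values in every array are given for members whose groups did not overlap, the 6 largest differences and fixed pathway nodes; Mbtps2, Nceh1, Npc1, Fasn and Ch25h were added after their values were seen. Of each further list, the 3 genes of smallest p are named. The members and lists were chosen with earlier results of these data known.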

Additional observations from a re-analysis of the deposited data

How the results depend on the processing

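No member had an adjusted p under 0.05 in any of 14 other settings by limma (smallest 0.382), nor did any other gene. Leaving out single arrays gave 0 to 3 members at an unadjusted p under 0.05 (1.06% to 10.8% of all genes), and 6 to 19 of 27 higher in NPFF (39.1% to 60.0% of all genes), with the median from -0.06 to 0.12; the 3, the 6 and the lowest median are without control 1. Cyclic loess gave 2 such members (3.45% of all genes) and array weights 1 (8.41%), with a median of -0.02 for the latter. With the replicate number as a block the member count stayed at 0 and the median at 0.07; deviations of same-numbered arrays correlated at 0.23, 0.45 and -0.33, so the numbers were not taken to pair samples. Signs changed in 16 members in some setting and in 10 without control 1; the cause was not tested. Leave-one-out ranges of those that changed were -0.17 to 0.086 for Hmgcs1, -0.081 to 0.29 for Pmvk, -0.11 to 0.014 for Fdft1, -0.077 to 0.24 for Lss, -0.070 to 0.26 for Tm7sf2, -0.039 to 0.13 for Msmo1, -0.079 to 0.018 for Nsdhl, -0.083 to 0.038 for Sc5d, -0.036 to 0.080 for Dhcr7, -0.0077 to 0.57 for Srebf2, -0.087 to 0.38 for Insig1, -0.033 to 0.26 for Mbtps1, -0.061 to 0.39 for Ggps1 and -0.014 to 0.11 for Lbr. Array weights gave -0.049 for Pmvk, -0.084 for Lss, -0.015 for Msmo1, 0.013 for Nsdhl, -0.0073 for Insig1, -0.0046 for Mbtps1 and -0.092 for Ggps1. Without controls 1 and 2, where control 3 alone is assumed to vary like the NPFF arrays, values were -0.11 for Pmvk, 0.033 for Fdft1, -0.14 for Lss, -0.029 for Msmo1, 0.024 for Nsdhl, -0.0044 for Insig1, -0.032 for Mbtps1, 0.0056 for Mbtps2, -0.039 for Acat1 and -0.20 for Ggps1. Hmgcs1 was 0.0073 on the deposited scale and 0.0097 after median centring.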

Other observations

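Scap and Nceh1 each had a second, dimmer feature. The second feature of Scap differed by 0.01 between NPFF and control, where its brighter feature differed by 0.18, and the second feature of Nceh1 differed by -0.08, where its brighter feature differed by -0.13. Over the 6 arrays, a description that rests largely on control 1, Pearson's r with Srebf2 was highest for Insig1 (0.985), Ebp (0.985) and Mbtps1 (0.977) and lowest for Mbtps2 (-0.79) and Hsd17b7 (-0.64). The median r over the 351 pairs of members was 0.50 with all 6 arrays and 0.18 without control 1.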
